A study of Arabidopsis thaliana with 4 samples.

Results

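The group IX ethylene response factors are plant transcription factors of the AP2/ERF family, and 8 of their genes were followed here in the base of the Arabidopsis thaliana inflorescence stem. They were taken by locus as ERF1A (AT4G17500), ERF2 (AT5G47220), ERF5 (AT5G47230), ERF6 (AT4G17490), ERF104 (AT5G61600), ERF105 (AT5G51190), ERF1 (AT3G23240) and ORA59 (AT1G06160), out of 33316 named loci and 17 group IX genes. The 8 were chosen by their reads and RPKM in mol1-1 against WT. Their differences between genotypes are therefore described, and calls among them are not used as a test. The mutant mol1-1 was set against the wild type (WT), both in the accession Col-0, with 2 libraries of polyadenylated RNA per genotype. MOL1 is a receptor-like kinase with leucine-rich repeats and is known to hold back cambium activity in the stem. Plants of both genotypes spent 3 weeks in short days (8 h of light) at 21 °C before a move to long days (16 h of light). The sample was the lowest 1 cm of the stem above the rosette, cut when plants stood 15 to 20 cm high. The labels do not say whether replicates came from separate plants, so all p-values measure the spread between these libraries, which may be technical.

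Ethylene is perceived by membrane receptors, and its signal is carried by EIN2 to the transcription factor EIN3, which switches on ERF1. Group IX factors bind the GCC box, a promoter element of defence genes such as the plant defensin PDF1.2. ERF1 and ORA59 join the ethylene and jasmonate signals in defence, whereas ERF5, ERF6, ERF104 and ERF105 respond to stress, and ERF6 and ERF104 are substrates of MAP kinases. Group IX is divided into subgroup IXa with ERF1A, ERF2 and ERF13, subgroup IXb with ERF5, ERF6 and ERF104 to ERF107, and subgroup IXc with ERF1, ORA59, ERF15 and several small proteins.

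Exon reads in named loci numbered 37059413 and 28570901 in the mol1-1 libraries and 30794836 and 28017346 in the WT libraries. MOL1 itself had 2.96 and 2.96 RPKM in mol1-1, against 9.75 and 9.43 RPKM in WT, where RPKM is a read count scaled to exon length and library size. Its log2 fold change was -1.66 (SE 0.12, edgeR adjusted p 0.0217), and reads over the whole gene do not separate full-length from truncated transcripts. Markers of xylem, phloem, cambium, epidermis and green cortex were all detected, and edgeR called 0 of these 21 genes, with 1, an epidermis marker, at an unadjusted p under 0.05, DESeq2 0 and limma-voom 0. The 4 epidermis markers summed to 154.5 and 99.7 RPKM in mol1-1 and to 186 and 187 RPKM in WT. WT replicate 1 stood apart from WT replicate 2 in jasmonate and defence genes, with 74.7 against 8.86 RPKM of VSP2. It also held more reads of the 4 flower markers, whose sum was 1.47 RPKM there and at most 0.309 RPKM in the other 3 libraries. Rapid touch and wound genes, a list of 9 chosen with earlier results of these data known, were higher in every member in both mol1-1 libraries. That held for 16.9% of all tested genes. All 9 had an unadjusted p under 0.05, as did 1130 of the 19024 tested genes. Of them edgeR called TCH3, TCH4, ZAT12 and CAF1a, limma-voom called 4 and DESeq2 called 9. Over all tested genes the 3 tools called 38, 33 and 290, and given how the list was chosen nothing is read from its counts. Their RPKM summed to 279.9 and 304 in mol1-1 and to 61.9 and 61.4 in WT, and the part of epidermis, flower or touch genes in the results on the 8 genes was not tested.

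The 8 genes together gave far more transcript in the mutant. Their summed level was 276 ± 42.8 RPKM in mol1-1 and 63.2 ± 10.15 RPKM in WT (SD, n = 2 each). The pool also had another make-up. ERF1A was its leading gene in mol1-1, with 32.7% and 29.5% of the summed RPKM, against 22.7% and 19.9% in WT. ORA59 led in WT, where it held 33.7% and 29.7%, but held 8.49% and 8.26% in mol1-1. In bulk tissue, more cells that express a gene and more RNA per cell cannot be told apart.

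**Figure D1:**
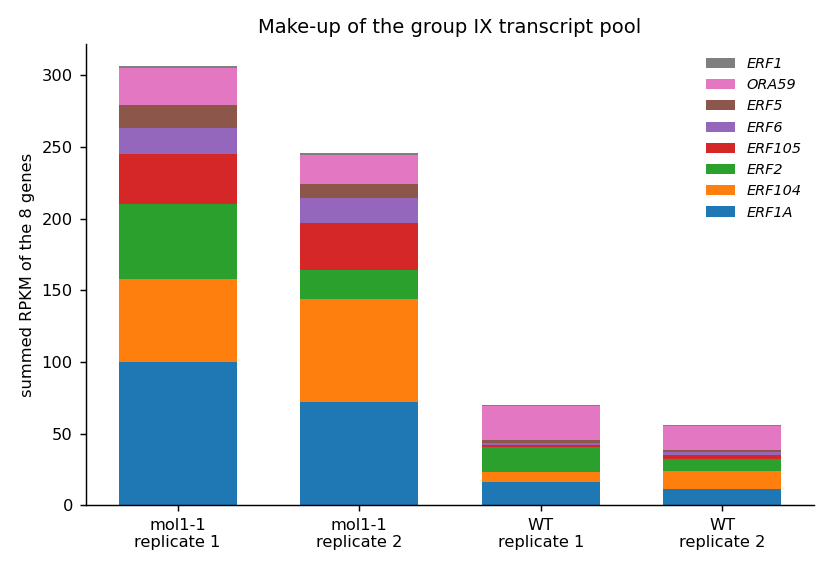
Stacked bars give the deposited RPKM of the 8 genes in each library, with mol1-1 libraries on the left, and each colour is a gene. The bars reach 306 and 246 RPKM in mol1-1 and 70.4 and 56.0 RPKM in WT, and the ORA59 segment is of like height in all 4.

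In log2 fold change of mol1-1 over WT, from the edgeR fit over 19024 tested genes, the median of the 8 was 2.70, against -0.01 for all tested genes. All 8 passed the filter on low counts. All 8 values were above 0, as were 47.8% of those of all tested genes, and 7 were above 1, as were 2.02%. For 7 of the 8, both mol1-1 libraries lay above both WT libraries, which held for 16.9% of all tested genes. The fit called 4 of the 8 higher at an adjusted p under 0.05, namely ERF1A, ERF5, ERF6 and ERF105. The set depended on the tool. DESeq2 called the same 4 and ERF104, and limma-voom called ERF1A, ERF6, ERF104 and ERF105. Of all tested genes edgeR called 0.189% higher, 0.0105% lower and 0.200% in either direction. That balance, 36 higher and 2 lower, was 258 higher and 32 lower with DESeq2, and 31 higher and 2 lower with limma-voom. It was least one-sided without mol1-1 replicate 1 and without WT replicate 2, fits that leave 1 library in a genotype. Over all tested genes 1130 had an unadjusted p under 0.05, the background for such counts in the lists below. The genes were listed with these values known, so nothing is read from these shares. Without WT replicate 1, which stood apart from WT replicate 2 in jasmonate and defence genes, the median was 2.60. Without mol1-1 replicate 1 it was 2.39.

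**Figure D2:**
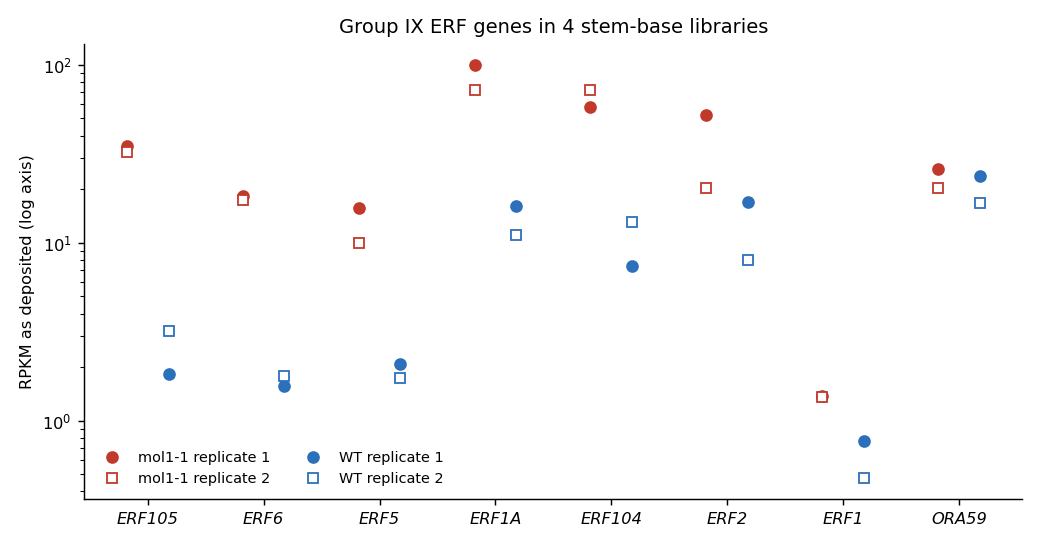
Each point is the deposited RPKM of a gene in a library, on a log axis, with mol1-1 in red on the left and WT in blue on the right of each gene. For 7 genes the red points lie above the blue ones, from ERF105 with 34.96 and 32.5 against 1.84 and 3.20 RPKM to ERF1 with 1.38 and 1.36 against 0.764 and 0.475 RPKM, while the ORA59 points interleave.

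The order of the genes by level differed between genotypes. In mol1-1 the mean level ran from ERF1A (86.3 ± 19.6 RPKM) and ERF104 (64.9 ± 9.71) through ERF2 (36.1 ± 22.4), ERF105 (33.8 ± 1.71), ORA59 (23.2 ± 4.05), ERF6 (17.9 ± 0.747) and ERF5 (12.8 ± 4.08) to ERF1 (1.37 ± 0.0136; SD, n = 2). ERF1A and ERF104 were nearly level in replicate 2, at 72.4 and 71.7 RPKM, and the range of ERF2 overlapped those of ERF105 and ORA59. In WT the order was ORA59 (20.2 ± 4.98 RPKM), ERF1A (13.6 ± 3.45), ERF2 (12.5 ± 6.42), ERF104 (10.2 ± 4.03), ERF105 (2.52 ± 0.9625), ERF5 (1.91 ± 0.25), ERF6 (1.67 ± 0.157) and ERF1 (0.619 ± 0.205; SD, n = 2). The ranges of ORA59 and ERF2, of ERF1A, ERF2 and ERF104, of ERF105 and ERF5, and of ERF5 and ERF6 overlapped or touched within their spread. ERF1 was thus the lowest in both genotypes. The mean levels of ERF105, ERF5 and ERF6 were at most 2.52 RPKM in WT and at least 12.8 RPKM in mol1-1.

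Of subgroup IXa, ERF1A and ERF2 encode activators that bind the GCC box. ERF1A had 100.1 and 72.4 RPKM in mol1-1 (3832 and 2137 reads), against 16.0 and 11.1 RPKM in WT (509 and 322 reads). The lower mutant library was 4.53 times the higher WT library, and the log2 fold change was 2.71 (SE 0.25). ERF2 had 51.9 and 20.2 RPKM in mol1-1, against 17.0 and 7.95 RPKM in WT. The groups of ERF2 did not overlap, but its lower mutant library was only 1.19 times its higher WT library. Its log2 fold change of 1.58 (SE 0.53) was 0.69 without mol1-1 replicate 1 and 2.20 without WT replicate 1.

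The promoters of these genes carry the longest stretch shared by any pair of group IX promoters. They are printed here, 250 bases before the annotated start in RefSeq's TAIR10.1, 5′ to 3′ on the gene's strand, with capitals on the W box core TTGAC, which WRKY factors bind, and on the G box CACGTG, which bZIP and bHLH factors bind. ERF1A lies at chr4:9758953-9759202 (plus strand) and ERF2 at chr5:19172957-19173206 (minus strand).
ERF1A: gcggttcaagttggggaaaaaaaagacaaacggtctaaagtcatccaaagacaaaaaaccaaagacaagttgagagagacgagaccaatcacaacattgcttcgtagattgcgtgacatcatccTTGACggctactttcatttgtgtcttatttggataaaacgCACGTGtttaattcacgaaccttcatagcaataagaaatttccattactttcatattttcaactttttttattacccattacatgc
ERF2: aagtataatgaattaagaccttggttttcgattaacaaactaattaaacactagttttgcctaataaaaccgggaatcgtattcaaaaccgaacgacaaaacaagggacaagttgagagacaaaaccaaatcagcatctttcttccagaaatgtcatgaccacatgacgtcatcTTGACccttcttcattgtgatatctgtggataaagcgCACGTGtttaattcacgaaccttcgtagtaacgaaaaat
Over 136 pairs of group IX promoters compared in this orientation, the longest exact run was 26 bases, shared by ERF1A and ERF2, and the next longest was 13. That run around the G box is cgCACGTGtttaattcacgaaccttc, from -88 to -63 in ERF1A and from -41 to -16 in ERF2 relative to the start. It occurs in 2 of 27443 promoters of protein-coding genes. The shared stretch is a description of the sequence and shows no binding.

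Of subgroup IXb, ERF105 and ERF6 had the highest log2 fold changes of the 8. ERF105, known for its response to cold and other stresses, had 34.96 and 32.5 RPKM in mol1-1, against 1.84 and 3.20 RPKM in WT. Both mutant libraries were at least 10.2 times the higher WT library, and the log2 fold change was 3.78 (SE 0.28). ERF6, a MAP kinase substrate that restrains leaf growth under osmotic stress, had 18.4 and 17.4 RPKM in mol1-1, against 1.56 and 1.78 RPKM in WT. The mutant libraries agreed closely, at 724 and 526 reads against 51 and 53, and the log2 fold change was 3.45 (SE 0.18). By log2 fold change ERF105 and ERF6 ranked 19 and 21 among the 19024 tested genes.

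ERF5, the closest relative of ERF6, had 15.7 and 9.92 RPKM in mol1-1, against 2.09 and 1.74 RPKM in WT. Its lower mutant library was 4.74 times its higher WT library (log2 fold change 2.78, SE 0.29). ERF104, another MAP kinase substrate, which takes part in the response to bacterial flagellin, had 58.0 and 71.7 RPKM in mol1-1, against 7.39 and 13.1 RPKM in WT. It was the only member higher in replicate 2 than in replicate 1 of the mutant, and its log2 fold change was 2.69 (SE 0.30). The groups of ERF5, ERF6, ERF104 and ERF105 lay well apart, by at least 4.43 times between the nearest libraries. ERF106 and ERF107, also of this subgroup, did not lie that far apart and are described below.

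In the RefSeq annotation ERF105 lies wholly within AT5G51180, a gene on the opposite strand. Without stated strand use, reads of overlapping genes cannot be told apart. AT5G51180 had 1471 and 905 reads in mol1-1 against 1081 and 914 in WT (log2 fold change 0.11, SE 0.16, edgeR adjusted p 0.997).

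Of the 8 genes, those of subgroup IXc had the smallest log2 fold changes. ORA59, an activator of jasmonate and ethylene-responsive defence genes, had 26.03 and 20.3 RPKM in mol1-1, against 23.7 and 16.7 RPKM in WT. The groups interleaved, and the log2 fold change was 0.24 (SE 0.21). ERF1, a direct target of EIN3, was the least abundant, at 1.38 and 1.36 RPKM in mol1-1 against 0.764 and 0.475 RPKM in WT. It rested on 50 and 38 reads in mol1-1 against 23 and 13 in WT. The 95% exact Poisson intervals were 1.03 to 1.82 and 0.964 to 1.87 RPKM in mol1-1, and 0.484 to 1.15 and 0.253 to 0.812 RPKM in WT. The interval of WT replicate 1 reached into those of both mutant libraries, and such intervals cover counting error only. The log2 fold change of ERF1 was 1.17 (SE 0.39).

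ORA59 and ERF15, a gene of the same subgroup that is no member, both carry the core of the GCC box, GCCGCC, and a G box. Their promoters, at chr1:1882657-1882906 (plus strand) and chr2:13307573-13307822 (minus strand), are shown with capitals on both elements.
ORA59: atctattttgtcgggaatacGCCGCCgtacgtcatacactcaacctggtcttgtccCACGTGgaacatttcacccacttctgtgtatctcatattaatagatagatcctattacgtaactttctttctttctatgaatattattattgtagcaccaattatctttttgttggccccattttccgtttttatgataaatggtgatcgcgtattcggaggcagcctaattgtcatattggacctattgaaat
ERF15: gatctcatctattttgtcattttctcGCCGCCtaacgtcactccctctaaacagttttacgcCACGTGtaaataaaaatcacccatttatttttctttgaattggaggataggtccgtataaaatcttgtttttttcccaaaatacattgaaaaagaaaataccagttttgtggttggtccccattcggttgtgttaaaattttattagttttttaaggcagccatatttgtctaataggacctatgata
On either strand, GCCGCC was found in 1.87% of the 27443 promoters and in 1 of the 8 members, ORA59. The full GCC box AGCCGCC, which holds GCCGCC within it, was found in 0.587% and in 0 of the 8. The G box was found in 6.49% and in ERF1A, ERF2 and ORA59. The W box core TTGAC was found in 44.9% and in 4 of the 8, ERF1A and ERF2 among them, and the rapid stress response element CGCGTT in 2.59% and in 0 of the 8. Neither ERF1, ERF6 nor ERF104 held any of these letters in the 250 bases searched. RefSeq gene lengths differ from the deposited exon lengths, with 1338 against 1044 bp for ERF6. The searched stretch may therefore not adjoin the start of the counted gene. A match of letters is a description and shows no binding.

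Replicates differed by gene, not only by library. In RPKM, mol1-1 replicate 1 exceeded mol1-1 replicate 2 for 7 of the 8 genes, by 1.01 times for ERF1 up to 2.56 times for ERF2, and ERF104 was at 0.809. WT replicate 1 exceeded WT replicate 2 for 5 of the 8, most in ERF2 at 2.14 times. ERF104 and ERF105 were lower in WT replicate 1, at 0.565 and 0.575 of WT replicate 2. ERF2 thus varied most within both genotypes, and ERF6 little in either, at 1.06 in mol1-1 and 0.876 in WT.

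**Figure D3:**
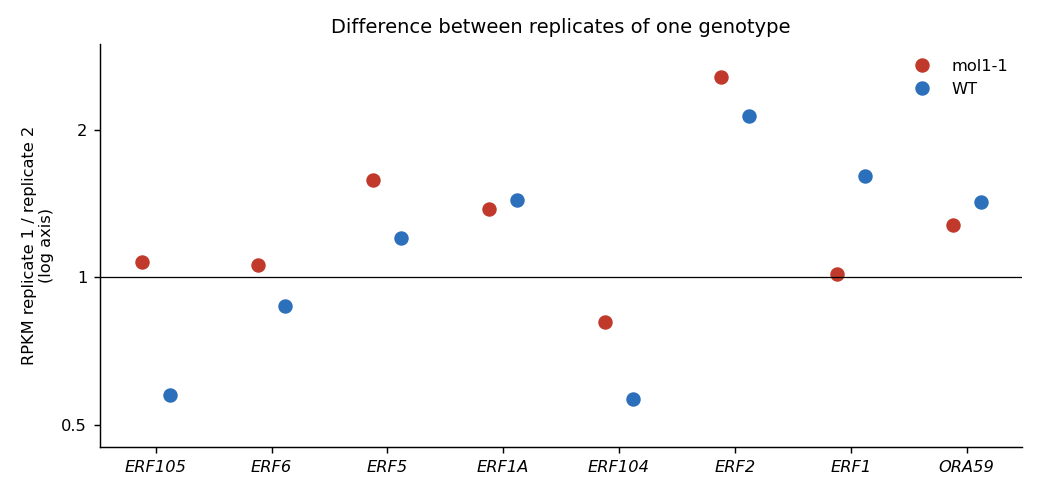
Points give the ratio of RPKM in replicate 1 to replicate 2 for each gene, on a log axis, with mol1-1 in red on the left and WT in blue. ERF2 lies highest in both genotypes, at 2.56 and 2.14, and ERF104 lies below 1 in both, at 0.809 and 0.565.

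All reads assigned to the 8 genes were unique. They have 1 exon each in the deposited tables, and no intron or exon-exon junction reads. The closest coding sequences were those of ERF5 and ERF6, with identical bases over 75.5% of the shorter one, then ERF1A and ERF2 at 74.2% and ERF104 and ERF105 at 66.8%. In the pair of ERF1A and ERF2 the log2 fold changes were 2.71 and 1.58.

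Of the 8 genes, 4 form neighbouring pairs that are transcribed away from each other. ERF6 (chr4:9752824-9754161) and ERF1A (chr4:9759203-9760391) lie 5041 bp apart on chromosome 4 with no annotated locus between them. ERF2 (chr5:19171643-19172956) and ERF5 (chr5:19179881-19181182) lie 6924 bp apart on chromosome 5, with 2 annotated loci between them that had 0 reads in all 4 libraries. Each pair thus joins a gene of subgroup IXa to one of subgroup IXb. ERF104 lies 832 bp from ERF107, also of subgroup IXb, on the same strand.

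Other genes next to the 8 were also compared between genotypes. The annotation places 14 loci that are not members directly beside them, of which 6 were tested. With edgeR 0 of the 6 passed, and as 0.200% of all tested genes did, nothing is read from that count. Of the 6, 1 had an unadjusted p under 0.05, and their log2 fold changes ran from -0.28 to 0.94, with a median of 0.06. The highest was that of ERF107 (DESeq2 adjusted p 0.000275). AT5G47210, 379 bp from ERF2, had 7742 and 6983 reads in mol1-1 and 7880 and 5894 in WT (log2 fold change -0.01, SE 0.16, edgeR adjusted p 0.998). AT4G17486, beside ERF6, had a log2 fold change of 0.12 (SE 0.13, edgeR adjusted p 0.997).

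**Figure D4:**
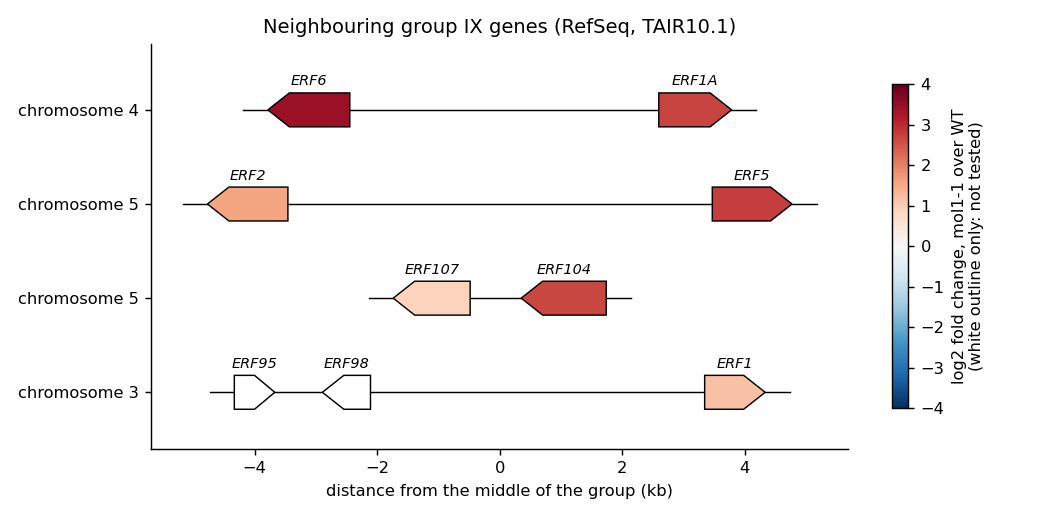
Arrows show group IX genes that neighbour each other, to scale in kb from the middle of each group and pointing along their strand, coloured by log2 fold change of mol1-1 over WT, with untested genes white and loci of other families not drawn. ERF6 (3.45) and ERF1A (2.71) on chromosome 4 and ERF2 (1.58) and ERF5 (2.78) on chromosome 5 point away from each other.

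The other 9 group IX genes gave a mixed picture, and 4 of them had enough reads to be tested. With edgeR 0 of the 4 passed, 3 had an unadjusted p under 0.05, and DESeq2 called 2 and limma-voom 0. ERF13 of subgroup IXa had 29.3 and 4.29 RPKM in mol1-1 (1027 and 116 reads), against 0.171 and 0.0753 RPKM in WT (5 and 2 reads). Its groups lay far apart, but the mutant libraries differed widely, and the log2 fold change of 7.08 (SE 1.29) had an edgeR adjusted p of 0.19. The log2 fold change was 5.04 without mol1-1 replicate 1 and 7.88 without mol1-1 replicate 2. ERF107, which represses wax synthesis genes in the epidermis, had 221 and 226 RPKM in mol1-1, against 107 and 132 RPKM in WT (log2 fold change 0.94, SE 0.17, edgeR adjusted p 0.19). It was the most abundant group IX gene in mol1-1.

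ERF106, also of subgroup IXb, had 124 and 134 RPKM in mol1-1, against 119 and 126 RPKM in WT (log2 fold change 0.11, SE 0.14, edgeR adjusted p 0.997). ERF15 was the only tested group IX gene with a value below 0. It had 13.3 and 15.6 RPKM in mol1-1, against 32.4 and 18.3 RPKM in WT (log2 fold change -0.78, SE 0.26, edgeR adjusted p 0.671), and without WT replicate 1 the log2 fold change was -0.35. The remaining 5 genes, ERF091, ERF14, ERF95, ERF96 and ERF98, had at most 4 reads in any library.

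Defence genes with a GCC box, the known targets of ORA59 and ERF1, had overlapping groups in the 3 tested cases, with a median log2 fold change of -0.46. Of all tested genes, both mol1-1 libraries lay above both WT libraries in 16.9% and below them in 16.8%. Most tested genes thus overlapped, and nothing is read from the overlap of 3. Of the 9 GCC-box defence targets 3 were tested, and 0 passed with edgeR, 0 with DESeq2 and 0 with limma-voom, with 0 at an unadjusted p under 0.05. PDF1.2b, a plant defensin, had 2.62 and 11.4 RPKM in mol1-1, against 31.0 and 3.59 RPKM in WT. The groups interleaved, and the log2 fold change of -1.296 (SE 1.03, edgeR adjusted p 0.997) was 0.93 without WT replicate 1. HEL, a chitin-binding defence protein, had 140.3 and 230.1 RPKM in mol1-1, against 309 and 164 RPKM in WT (log2 fold change -0.32, SE 0.34, edgeR adjusted p 0.997), and 0.16 without WT replicate 1. CHI-B, a basic chitinase gene, had 0.33 and 0.947 RPKM in mol1-1, against 1.53 and 0.218 RPKM in WT. Its log2 fold change of -0.46 (SE 0.90, edgeR adjusted p 0.997) is the median given above. PDF1.1, PDF1.2a, PDF1.2c, PDF1.3, OSM34 and ACT had at most 31 reads in any library.

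Of 5 genes that ERF5 and ERF6 activate in leaves 4 were tested, and ERF11 passed. All 4 had values above 0, as did 47.8% of all tested genes. In all 4 both mol1-1 libraries lay above both WT libraries, as in 16.9% of all tested genes. ERF11, a repressor of group VIIIa, had 15.9 and 24.4 RPKM in mol1-1, against 2.50 and 3.65 RPKM in WT. It rose by 2.74 on the log2 scale (SE 0.29, edgeR adjusted p 0.0493), but missed the threshold in limma-voom (0.0796) and where genes needed 1 CPM, a depth-scaled count, in 2 libraries (0.0521). Of the 4, 3 had an unadjusted p under 0.05, as did 1130 of the 19024 tested genes. DESeq2 called 3 of them, and 290 genes in all. STZ, a zinc finger repressor, had 40.2 and 51.2 RPKM in mol1-1 against 18.1 and 19.7 RPKM in WT (log2 fold change 1.2996, SE 0.15, edgeR adjusted p 0.0608). WRKY33, a defence regulator, had 12.7 and 22.5 RPKM in mol1-1 against 5.81 and 6.97 RPKM in WT (log2 fold change 1.49, SE 0.28, edgeR adjusted p 0.204). MYB51, a regulator of indole glucosinolates, had 6.77 and 10.9 RPKM in mol1-1 against 5.87 and 6.53 RPKM in WT (log2 fold change 0.53, SE 0.24, edgeR adjusted p 0.895).

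Of the 8 group VIIIa repressor genes, which bind the same GCC box and silence their targets, 7 were tested. With edgeR ERF11 alone was called, where 0.200% of all tested genes were called. DESeq2 called 1 and limma-voom 0. Of the 7, 3 had an unadjusted p under 0.05, as did 1130 of the 19024 tested genes. In 3 both mol1-1 libraries lay above both WT libraries, as in 16.9% of all tested genes. Their median log2 fold change was 0.20. ERF4, induced by ethylene and jasmonate, had 43.1 and 54.0 RPKM in mol1-1, against 34.6 and 27.1 RPKM in WT (log2 fold change 0.68, SE 0.17, edgeR adjusted p 0.383).

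**Figure D5:**
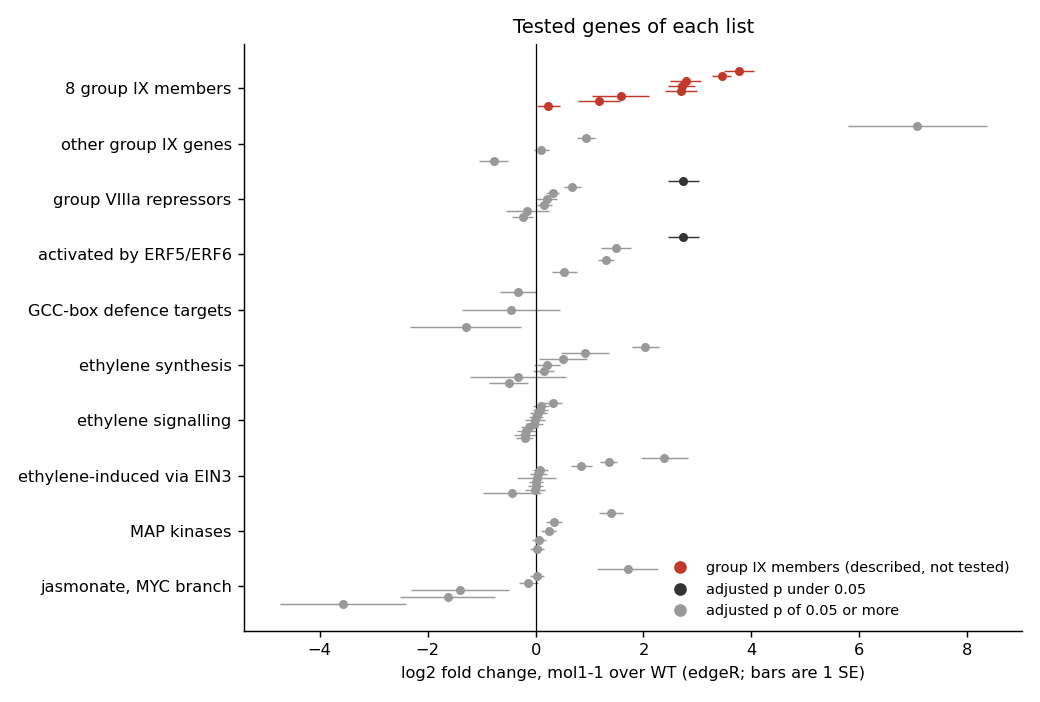
Points give log2 fold changes of mol1-1 over WT for the tested genes of each list, with bars of 1 SE, members in red, called genes in black and other genes in grey. The members reach 3.78, the ethylene signalling genes stay between -0.20 and 0.32, and ERF11 stands in both lists that hold it, at 2.74.

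The ethylene pathway was measured in 30 genes, 24 of them tested, of synthesis, of signalling and of those that ethylene induces through EIN3. With edgeR 0 passed and with limma-voom 0, 4 had an unadjusted p under 0.05, and DESeq2 called 4. In each of these counts of 4, 1 gene was of synthesis, 0 of signalling and 3 of those induced through EIN3. Fits with a library left out have 1 library in a genotype, so their calls are not read here. ACS6, whose product makes the ethylene precursor and is stabilised by MAP kinases, had 9.68 and 14.7 RPKM in mol1-1, against 2.66 and 3.40 RPKM in WT. Its log2 fold change was 2.03 (SE 0.25, edgeR adjusted p 0.0663). With single libraries left out it ran from 1.73 (without mol1-1 replicate 2) to 2.27 (without mol1-1 replicate 1).

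The 11 receptor and signalling genes had log2 fold changes from -0.20 to 0.32. The highest was EIL1, a homologue of EIN3, with 29.2 and 37.8 RPKM in mol1-1 and 24.9 and 29.7 RPKM in WT (edgeR adjusted p 0.971, SE 0.18), and the lowest was the receptor ETR1 (SE 0.16, edgeR adjusted p 0.997). EIN3 itself had 94.5 and 77.5 RPKM in mol1-1 and 97.1 and 100.7 RPKM in WT. Of 10 genes that ethylene induces through EIN3, all tested, 0 passed with edgeR and 0 with limma-voom, 3 had an unadjusted p under 0.05, and DESeq2 called 3. Their log2 fold changes ran from -0.44 for HLS1, a regulator of the apical hook, to 2.39 for EDF2, with a median of 0.04. The receptor genes ERS1, ETR2 and ERS2 and the F-box gene EBF2 had values between -0.01 and 0.09.

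The 3 at an unadjusted p under 0.05 were EDF1, EDF2 and EDF4, of 4 EDF genes in the list, which encode AP2/B3 factors. EDF1 had 33.9 and 39.8 RPKM in mol1-1, against 13.2 and 16.2 RPKM in WT (log2 fold change 1.35, SE 0.16, edgeR adjusted p 0.0639). With single libraries left out its log2 fold change ran from 1.18 (without WT replicate 1) to 1.56 (without WT replicate 2). EDF2 had 6.15 and 15.2 RPKM in mol1-1, against 1.85 and 2.27 RPKM in WT (log2 fold change 2.39, SE 0.43, edgeR adjusted p 0.19). The log2 fold change of EDF2 was 2.875 without mol1-1 replicate 1 and 1.63 without mol1-1 replicate 2. EDF3 had 4.50 and 9.55 RPKM in mol1-1 and 8.34 and 5.65 RPKM in WT, where the groups overlapped (log2 fold change 0.02, SE 0.36, edgeR adjusted p 0.998). EDF4 had 125 and 122.5 RPKM in mol1-1, against 59.7 and 80.3 RPKM in WT (log2 fold change 0.85, SE 0.20, edgeR adjusted p 0.347).

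Of 5 genes of the MAP kinase cascade that phosphorylates group IX factors, 0 passed with edgeR and 0 with limma-voom, 1 had an unadjusted p under 0.05 and DESeq2 called 1. That gene was MKK9, a kinase upstream of MPK3 and MPK6. It had 75.1 and 50.9 RPKM in mol1-1, against 26.1 and 23.2 RPKM in WT (log2 fold change 1.39, SE 0.22, edgeR adjusted p 0.14). The log2 fold change was 1.04 without mol1-1 replicate 1 and 1.67 without mol1-1 replicate 2. MPK6 had 42.5 and 48.2 RPKM in mol1-1 and 45.4 and 45.3 RPKM in WT, and MPK3 had 72.9 and 63.1 RPKM in mol1-1 and 53.4 and 56.6 RPKM in WT (log2 fold change 0.34, SE 0.15, edgeR adjusted p 0.895).

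Genes of jasmonate perception and of the MYC branch, which opposes the ERF branch in defence, had values on both sides of 0. COI1 (0.02) and MYC2 were above 0, and MED25 (-0.13), VSP1 (-1.41), VSP2 (-1.63) and LOX2 were below. The groups of COI1, MED25, VSP1 and VSP2 overlapped. Of 6 tested genes 0 passed with edgeR, 0 with DESeq2 and 0 with limma-voom, and 2 had an unadjusted p under 0.05. MYC2, the transcription factor of the branch, had 135.8 and 43.9 RPKM in mol1-1, against 36.8 and 20.3 RPKM in WT (log2 fold change 1.71, SE 0.57, edgeR adjusted p 0.655). Without mol1-1 replicate 1 the log2 fold change was 0.62, and without mol1-1 replicate 2 it was 2.31. LOX2, an enzyme of jasmonate synthesis, had 0.178 and 0.656 RPKM in mol1-1, against 9.07 and 0.804 RPKM in WT. Its log2 fold change of -3.57 (SE 1.17, edgeR adjusted p 0.637) became -0.98 once WT replicate 1 was left out, and leaving out WT replicate 2 gave -4.42.

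The genes whose profile over the 4 libraries lay nearest to the mean profile of the 8 were AT1G72940, AT4G27652, SULTR1;2, AT1G32920 and WRKY22. Nearness was the Euclidean distance between log2 CPM values centred on each gene's mean over 4 libraries, among 17741 genes that averaged 1 CPM or more, and it ran from 0.358 to 0.424. Of the 8 themselves ERF5 and ERF1A lay nearest, at 0.492 and 0.505, and ORA59 farthest, at 2.05. SULTR1;2, a sulfate transporter gene, had 14.8 and 14.3 RPKM in mol1-1, against 4.11 and 3.44 RPKM in WT. AT1G32920 had 81.4 and 89.2 RPKM in mol1-1, against 20.3 and 21.0 RPKM in WT. WRKY22, a defence-related WRKY factor gene, had 4.42 and 2.51 RPKM in mol1-1, against 0.89 and 0.719 RPKM in WT. Chosen for their likeness to the 8, these genes are a description and carry no test here.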

How the data were processed

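The authors deposited a table per library with read counts per locus (total and unique reads in exons and genes, intron and junction reads, per the file headers) and RPKM values. The deposited RPKM were recomputed from exon reads, exon length and the total of gene reads to within a relative difference of 2.17e-14. The submitters' processing notes name TAIR10, while aligner, counter and strand use are not given in sources used here. The 5 rows without a locus name (0.0586% to 0.0864% of exon reads) were left out, and 2 loci listed more than once were summed.

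Total exon reads were tested with edgeR 4.0.16 (R 4.3.3) using filterByExpr, TMM scaling and the quasi-likelihood test, mol1-1 over WT without covariates, with Benjamini-Hochberg adjustment over 19024 genes and a threshold of 0.05. The SE is the log2 fold change divided by the square root of F. The script was checked on simulated data. Replicates were not one library deposited again: their chi-square statistic divided by its degrees of freedom was 64.6 in mol1-1 and 29.7 in WT. Positions, promoters and coding sequences came from RefSeq's TAIR10.1, and coding sequences were aligned with Biopython 1.88.

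Members, lists and motifs were chosen with earlier results of these data known. The genes named are the members, the other group IX genes, up to 3 called genes per list (or the 2 of smallest p), adjacent genes and the 5 nearest profiles. Other list genes were named after their values were seen. Alternatives were DESeq2 1.42.0, limma-voom (limma 3.58.1), other scalings, filters and read columns, a replicate block and each library left out. A fit with a library left out has 1 library in a genotype, so its spread comes from the other genotype alone. Some items are not reported here.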

Additional observations from a re-analysis of the deposited data

How the results depend on the processing

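The 8 members were chosen by this contrast and the alternatives refit the same libraries, so their values here are a description and no support. ORA59 came nearest to 0, at 0.0053 (SE 0.199) without mol1-1 replicate 1 and 0.048 (SE 0.265) without WT replicate 2, so its sign is not resolved. Over 14 alternatives the log2 fold changes of the 8 members were above 0 in all 112 values. Their median ran from 2.39 (without mol1-1 replicate 1) to 2.75 with single libraries left out, and 3 to 6 members were called over all alternatives. The count of all genes called, 38, was 290 with DESeq2, 141 without a filter, 136 with a replicate block and 37 (without WT replicate 1) to 409 (without mol1-1 replicate 1) with single libraries left out, and it was 212 without mol1-1 replicate 2 and 89 without WT replicate 2. Of the other group IX genes, 0 called, 2 were called with DESeq2, 1 without a filter, 1 with the block and 0 to 1 with libraries left out. Of the genes ERF5 and ERF6 activate, 1 called, 3 were called with DESeq2, 0 with limma-voom, 2 without a filter, 0 with the 1 CPM filter, 3 with the block and 1 to 3 with libraries left out. Of the ethylene genes, 0 called, 4 were called with DESeq2, 1 without scaling beyond library size, 3 without a filter, 3 with the block and 0 to 4 with libraries left out. The labels number replicates 1 and 2 in both genotypes without pairing them, and the mutant tables carry the numbers 2 and 3 in their own names, so a shared number may mean nothing. Deviations from the genotype mean correlated at -0.238 between same-numbered libraries, and with 2 replicates crossed pairs have the opposite sign by construction. A crossed replicate block, added after seeing the data, called 248 genes in all, 2 other group IX genes, 3 activated by ERF5 and ERF6, and 4 ethylene genes, and calls gained or lost under either block are not read as stronger or weaker effects. Of 26 named genes outside the members, over 363 values, 42 gained and 2 lost a call. PDF1.2b ran from -2.65 to 0.93 and HEL from -0.69 to 0.16 with libraries left out, both above 0 without WT replicate 1. Causes of these differences were not tested. Calls made with a library left out come from fits with 1 library in a genotype, and are not read as effects. With 2 libraries per genotype and 13 reads of ERF1 in WT replicate 2, small differences cannot be resolved.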
